A study of Mus musculus with 8 samples.

Results

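Liver RNA was compared between hypophysectomized male mice killed 240 min after growth hormone (GH 240 min) and hypophysectomized male mice without it (Hypox). The genes described are the 11010 of 24197 in the deposited table whose mean gene body level was at least 0.5 FPKM (reads scaled to exon length and to the mapped reads of the library) in either group. Of these genes, 10193 reached that level in both groups, 361 in GH 240 min livers alone and 456 in Hypox livers alone. Haghl lay just inside the limit, with means of 0.497 FPKM in GH 240 min livers and 0.5002 FPKM in Hypox livers. Nfatc2ip lay just outside, with means of 0.4998 and 0.3065 FPKM in GH 240 min and Hypox livers.

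The GH 240 min group held CD-1 mice that had lost their pituitary at 7 weeks and, at 11 weeks of age, received 1 intraperitoneal dose of recombinant rat GH (125 ng for each g of mouse). The Hypox group held mice of the same strain, sex, age and surgery, untreated according to the study design and given vehicle according to the treatment protocol. Each group was sequenced as 2 libraries of pooled liver RNA after partial removal of ribosomal RNA, and groups taken 30 and 90 min after GH were sequenced in the same way. The other pituitary hormones were missing in all groups, and no vehicle group was taken at a matched time. The labels of one Hypox pool carry another prefix (G141) than those of the other 7 pools (G142), and which of the recovered Hypox libraries it is cannot be told.

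Growth hormone binds its receptor on hepatocytes, which switches on the kinase JAK2, and JAK2 in turn STAT5b, a transcription factor. STAT5b binds DNA at sites of the form TTCNNNGAA and is known for switching on Igf1, Cish and Socs2 and for switching off Bcl6 in liver. Reads in introns come largely from transcripts that are not yet spliced, so they follow recent synthesis more closely than reads in exons, which come mostly from mature mRNA. For most of the genes whose exons and introns are compared, levels or changes of both are given.

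The deposited values are group means, and whole reads per library were recovered from them. The 4 libraries are called the deeper and the shallower of each group, with totals of 25584732 and 21382154 reads at GH 240 min and 34452570 and 32802312 reads in Hypox. Exonic reads made up 25.1% to 26.3% of the totals and intronic reads 15.7% to 16.6%. The first principal component of the exonic levels, 32.6% of the variance over the 8 libraries, placed the GH 240 min libraries at 33.1 and 40.2 and the Hypox libraries at −12.2 and −23.1. Nothing in the labels ties a pool to other pools, so the p-values measure the spread between these pools. The liver was recognised by its markers: 9 hepatocyte markers summed to 12165 and 10990 FPKM in GH 240 min livers and to 13907 and 13614 FPKM in Hypox livers. In bulk liver RNA, fewer cells of a type and less RNA per cell cannot be told apart.

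At 240 min, exonic reads of 740 genes were higher and of 675 genes lower than in Hypox livers, of 10620 members tested (limma on log2 CPM + 0.1, Benjamini-Hochberg adjusted p under 0.05). Among all 13170 genes tested, 5.72% were called higher and 5.54% lower in exons. In introns, 584 members were higher and 652 lower of 9704 tested, against 4.96% called higher and 6.25% called lower of all 12216 genes tested. By the adjusted p in the authors' deposited table, 647 members were higher and 530 lower in exons (5.07% and 4.55% of all genes tested), and 533 higher and 704 lower in introns (4.7% and 6.99%). A fold change of at least 2 was reached by 202 of the higher and 171 of the lower genes in exons, and by 246 of the higher and 326 of the lower genes in introns. Without the shallower Hypox library, 203 members were called higher and 158 lower in exons, and 34 higher and 91 lower in introns. Of the 1415 exonic calls 265 held with each of the 4 libraries left out in turn, and of the 1236 intronic calls 111 did. The median change over all genes tested was −0.03 in exons and −0.00 in introns on the log2 scale. With scaling by library totals alone, 902 members were higher and 450 lower in exons.

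Exonic and intronic calls mostly had the same direction where both were made. Of the genes tested in both, 297 were higher in both and 247 lower in both. Exonic calls without an intronic call numbered 403 higher and 393 lower, and intronic calls without an exonic call 287 higher and 402 lower. The 402 genes lower in introns alone had a median exonic level of 6.81 FPKM in Hypox livers, against 2.44 FPKM over all genes tested in both. Their exonic change was below 0 in 358 and above 0 in 44, with a median of −0.32, beside −0.00 over all genes tested in both. No gene was lower in exons and higher in introns, and 3 genes, Ang, Il13ra1 and Oat, were higher in exons and lower in introns.

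**Figure D1:**
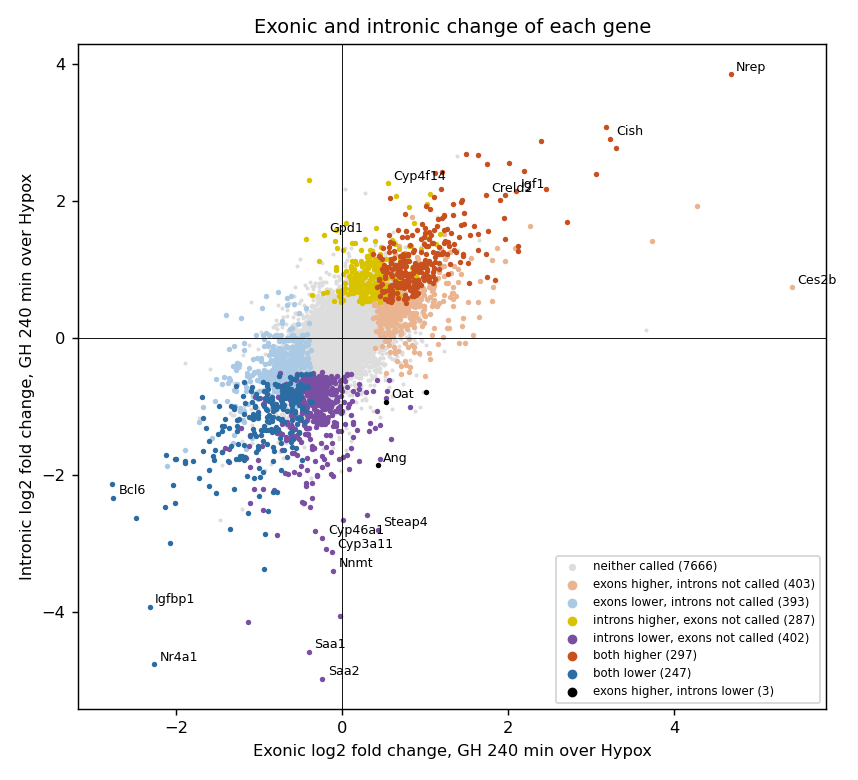
Log2 change of exonic reads (horizontal) and of intronic reads (vertical), GH 240 min over Hypox, with 1 point for each member tested in both, coloured by its calls. The 402 genes lower in introns alone, among them Saa1, Saa2, Nnmt, Cyp3a11 and Cyp46a1, lie below 0 on the vertical axis, with a median of −0.32 on the horizontal axis, and Cish and Igf1 lie in the upper right.

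Acute phase genes mostly encode plasma proteins that hepatocytes secrete in inflammation. The list used here also holds genes of other products, such as Steap4, a metalloreductase. Introns of the listed genes were much lower at 240 min while their exons were not called changed. Of 27 acute phase genes tested in introns, 18 were lower and 0 higher, beside 6.25% and 4.96% of all genes tested. Their median log2 change was −1.47, beside −0.00 over all genes tested. In 24 of the 27, both GH 240 min libraries lay below both Hypox libraries in introns, where the groups did not overlap for 57.2% of all genes tested. The median stayed between −1.73 and −1.24 with any 1 library left out, and the number called lower was 9, 11, 17 and 7 without the deeper GH 240 min, the shallower GH 240 min, the deeper Hypox and the shallower Hypox library. In exons, 0 of 30 were called in either direction by limma, with a median of −0.24. At an unadjusted p under 0.05, 1 was higher and 7 lower, and limma-voom called 0. The adjusted p in the authors' deposited table called 3 lower in exons, Lbp, Orm3 and Serpina3m, and 1 was called lower by limma without the deeper GH 240 min or the deeper Hypox library.

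Saa1, serum amyloid A1, an apolipoprotein of the acute phase, had one of the largest intronic decreases of the list (mm9 chr7:53995869-53998350). Its introns held 0.667 and 0.823 FPKM in the deeper and the shallower GH 240 min library, from 32 and 33 reads, against 18.4 and 18 FPKM in the deeper and the shallower Hypox library, from 1189 and 1106 reads. Both GH 240 min libraries lay far below both Hypox libraries, and the intronic level was 23.9-fold lower (log2 change −4.58 ± 0.45 SE, adjusted p = 0.00057). The exonic level was 116 and 127 FPKM in GH 240 min livers, inside the range of 288 and 79.6 FPKM in Hypox livers. The neighbouring and nearly identical Saa2 had 0.355 and 0.400 FPKM in introns at GH 240 min, against 13.9 and 12 FPKM in Hypox, a log2 change of −4.97 ± 0.50 (adjusted p = 0.000596). Its exons held 102 and 120 FPKM at GH 240 min and 232 and 66.1 FPKM in Hypox, again overlapping. Saa1 and Saa2 may share reads, so that their separate values are uncertain. Both intronic calls held with each library left out.

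Secreted binding proteins and fibrinogen chains behaved alike. Hp, haptoglobin, which binds free hemoglobin, had intronic levels of 4.20 and 2.65 FPKM at GH 240 min, against 14.8 and 21.5 FPKM in Hypox, and did not overlap (−2.47 ± 0.33, adjusted p = 0.00199). Its exons, at 333 and 369 FPKM in GH 240 min livers and 535 and 357 FPKM in Hypox livers, did overlap. Hpx, hemopexin, which binds heme, had 6.38 and 6.09 FPKM in introns at GH 240 min and 17.2 and 23.2 FPKM in Hypox (−1.74 ± 0.23, adjusted p = 0.00219), with an exonic log2 change of 0.01. Fgb, the beta chain of fibrinogen, changed in introns by −1.47 (adjusted p = 0.00386), while its exons held 1347 and 1190 FPKM at GH 240 min and 958 and 664 FPKM in Hypox. Those exonic levels were higher in both GH 240 min libraries without passing the test (0.59, adjusted p = 0.139). Itih4, an inter-alpha-trypsin inhibitor chain, Saa4 and Fga changed in introns by −1.88, −2.34 and −1.27 (adjusted p of 0.00311, 0.00193 and 0.00558). The intronic calls of Hp, Hpx, Itih4 and Saa4 held with each library left out, while those of Fgb and Fga lapsed without the shallower Hypox library (adjusted p of 0.0556 and 0.0726).

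Steap4, a metalloreductase raised in inflammation, had 0.748 and 0.679 FPKM in introns at GH 240 min, against 2.95 and 7.72 FPKM in Hypox (−2.80 ± 0.41, adjusted p = 0.00359). Its exonic level was 61.7 and 48.7 FPKM at GH 240 min and 50.9 and 29.4 FPKM in Hypox, and the intronic call held with each library left out. Lcn2, lipocalin 2, which binds bacterial iron carriers, had 0.174 and 0.208 FPKM in introns at GH 240 min and 1.17 and 1.15 FPKM in Hypox (−2.41 ± 0.49, adjusted p = 0.012). The Lcn2 call lapsed without the deeper GH 240 min, the shallower GH 240 min or the shallower Hypox library (adjusted p of 0.0898, 0.057 and 0.109). Nnmt, a methyltransferase that uses nicotinamide and is not in the acute phase list, was named for its intronic change of −3.40 ± 0.69 (adjusted p = 0.012), with 0.0703 and 0.134 FPKM at GH 240 min and 1.09 and 1.03 FPKM in Hypox. Its call lapsed without the deeper GH 240 min or the shallower Hypox library (adjusted p of 0.109 and 0.107), and its exons overlapped between the groups. The difference between exonic and intronic change, tested itself, had a median of 1.64 over the acute phase genes, beside −0.04 over all genes tested, but none passed the adjusted p of 0.05 in it. With at least 50 reads asked of exons and introns in 2 libraries, 11 of them passed.

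Over the time course the intronic means of Saa1 were 18.2 FPKM in Hypox, 12.1 at 30 min, 18.8 at 90 min and 0.745 at 240 min. Those of Hp were 18.2, 15.3, 17.7 and 3.42 FPKM in the same order, and those of Itih4 23.5, 20.1, 33.1 and 6.66 FPKM. For Saa1, Hp and Itih4 the low intronic level was thus seen at 240 min and not at 90 min. The same 2 Hypox libraries serve all times. Markers of inflammatory cells were read beside this. The 10 Kupffer cell markers summed to 47.2 and 34.4 FPKM at GH 240 min and 46.5 and 55.6 FPKM in Hypox, and 9 neutrophil markers to 4.35 and 4.12 FPKM at GH 240 min and 6.62 and 7.67 FPKM in Hypox. The part of these cells in the acute phase values was not tested.

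**Figure D2:**
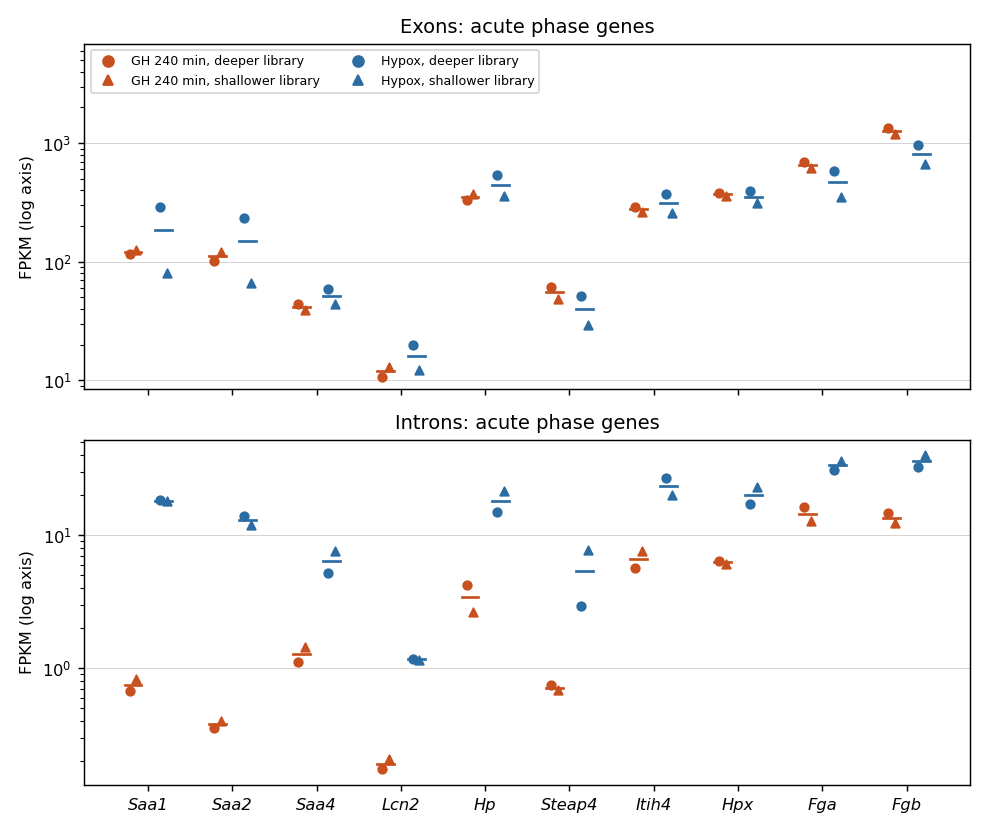
Level in each library (FPKM, log axis) of exons and introns of acute phase genes, GH 240 min left of Hypox; each point is 1 library (circle for the deeper, triangle for the shallower) and each bar the group mean. The intronic points of Saa1 sit at 0.667 and 0.823 FPKM in GH 240 min livers, below 18.4 and 18 FPKM in Hypox livers, while the exonic points overlap.

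Few genes passed the test of the difference between exonic and intronic change. The exonic change minus the intronic one was called above 0 in 8 members and below 0 in 0, of 9695 tested. Among all 11489 genes tested, 0.0783% were called higher and 0% lower. At an unadjusted p under 0.05, 633 members were higher and 653 lower (6.32% and 6.88% of all genes tested). The 8 were Ang, Ces2b, Cyp3a11, Cyp46a1, Fh1, Igtp, Prg4 and Sult2a6. In all but Ces2b the intronic change was negative and larger in size than the exonic one. None held with each library left out, and without the shallower GH 240 min or the shallower Hypox library none of the 8 was called. With at least 50 reads in 2 libraries for exons and for introns, 124 members were higher and 46 lower, and 2.22% of all 7889 genes then tested were called.

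Cyp3a11, a main drug-metabolising cytochrome P450 of mouse liver (mm9 chr5:146666183-146691430), had intronic levels of 0.964 and 0.722 FPKM at GH 240 min, against 7.67 and 6.31 FPKM in Hypox. Its exons held 736 and 509 FPKM at GH 240 min and 661 and 604 FPKM in Hypox. The introns were lower in both GH 240 min libraries (−3.12 ± 0.23, adjusted p = 0.00017), the exons overlapped, and the difference was 3.0 ± 0.29 (adjusted p = 0.0137). Intronic means of Cyp3a11 were 6.99 FPKM in Hypox, 0.994 at 30 min, 0.837 at 90 min and 0.843 at 240 min, so that they were already low at the first time. Cyp3a genes resemble each other, and reads may be shared among them. Cyp3a59, of the same family, was lower in both, with −3.37 in introns (adjusted p = 0.000245) and −0.94 in exons (adjusted p = 0.0173). Its exonic call held only without the deeper GH 240 min library, and reached an adjusted p of 0.104 without the shallower Hypox library.

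Cyp46a1, a cholesterol 24-hydroxylase best known from brain (mm9 chr12:109572591-109600444), had 0.0456 and 0.0654 FPKM in introns at GH 240 min and 0.429 and 0.412 FPKM in Hypox. Exonic levels of 7.25 and 11.2 FPKM at GH 240 min overlapped with 12 and 8.59 FPKM in Hypox. The difference was 2.67 ± 0.22 (adjusted p = 0.0103). Fh1, the fumarate hydratase of the citric acid cycle (mm9 chr1:177531509-177555766), had 0.656 and 0.537 FPKM in introns at GH 240 min and 2.33 and 1.97 FPKM in Hypox, with exons of 44.9 and 44.6 FPKM at GH 240 min and 47.2 and 34.1 FPKM in Hypox. Its introns were lower in both GH 240 min libraries (−1.91 ± 0.15, adjusted p = 0.000181) and the difference was 1.99 ± 0.20 (adjusted p = 0.0137).

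Ces2b, a carboxylesterase, was the 1 of the 8 with a large exonic rise. It had 5.32 and 3.63 FPKM in exons at GH 240 min and 0.0306 and 0.0643 FPKM in Hypox. Its exonic change was 5.42, its intronic change of 0.74 was not called, and the difference was 4.68 (adjusted p = 0.0137). Sult2a6, a sulfotransferase with close paralogs, had 0.0149 and 0.0178 FPKM in introns at GH 240 min and 0.0562 and 0.213 FPKM in Hypox, while its exons overlapped. Igtp, an interferon-inducible GTPase, was called neither in exons (0.88 ± 0.42) nor in introns (−1.07 ± 0.38), and its difference of 1.95 ± 0.24 lay at the threshold. Prg4, proteoglycan 4, overlaps Tpr and was lower in introns alone (−3.08 ± 0.39, adjusted p = 0.00157).

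Ang, a secreted ribonuclease that overlaps Rnase4, had 87.0 and 86.3 FPKM in exons at GH 240 min and 60.9 and 61.2 FPKM in Hypox (0.43 ± 0.11, adjusted p = 0.0352). Its introns held 3.07 and 2.90 FPKM at GH 240 min and 11.1 and 9.71 FPKM in Hypox (−1.86 ± 0.20, adjusted p = 0.000763). Oat, ornithine aminotransferase, had 222 and 183 FPKM in exons at GH 240 min and 146 and 121 FPKM in Hypox (0.53 ± 0.15, adjusted p = 0.0426). Its introns were lower in both GH 240 min libraries (−0.93 ± 0.21, adjusted p = 0.021). Il13ra1, a receptor chain for interleukin 13, had an exonic change of 1.01 ± 0.27 (adjusted p = 0.0364) and an intronic change of −0.79 ± 0.23 (adjusted p = 0.0478). Apart from the introns of Ang, these calls lapsed with 1 library left out, Ang and Oat exons reaching adjusted p of 0.141 without the deeper and 0.233 without the shallower Hypox library, and Il13ra1 0.232 in exons and 0.300 in introns without the shallower Hypox library.

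Introns called higher without their exons were seen in fewer named genes. Cyp4f14, which inactivates leukotriene B4 and other lipids (mm9 chr17:33042015-33054287), had 1.21 and 1.37 FPKM in introns at GH 240 min and 0.224 and 0.275 FPKM in Hypox (2.26 ± 0.23, adjusted p = 0.000631), and that call held with each library left out. Its exons held 9.78 and 9.02 FPKM at GH 240 min and 6.77 and 5.47 FPKM in Hypox, higher in both libraries but not past the test (0.55 ± 0.20, adjusted p = 0.110). The difference of −1.72 ± 0.26 had an adjusted p of 0.091, and 0.013 with at least 50 reads. The following genes were chosen after their values were seen, among those with a called difference at 50 reads. Gpd1, the cytosolic glycerol 3-phosphate dehydrogenase, had 0.726 and 0.545 FPKM in introns at GH 240 min and 0.232 and 0.171 FPKM in Hypox (1.5 ± 0.28), with exons of 13.8 and 9.67 FPKM at GH 240 min and 11.6 and 14.1 FPKM in Hypox. Slco2a1, a prostaglandin transporter, Cmah, which hydroxylates sialic acid, and Papss1, which makes the sulfate donor PAPS, had intronic changes of 1.39, 1.57 and 1.28 and exonic changes of 0.15, −0.07 and 0.01. The intronic call of Slco2a1 held with each library left out. Leaving out the shallower Hypox library gave an adjusted p of 0.10 for Gpd1, 0.102 for Cmah and 0.0514 for Papss1. The call of Gpd1 also lapsed without the deeper GH 240 min library (0.0843), and that of Cmah with any 1 of the 4 libraries left out.

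Of 17 genes of GH and STAT5 feedback and targets, 8 were higher and 5 lower in exons, beside 5.72% and 5.54% of all genes tested. In introns 6 of the 17 were higher and 3 lower, beside 4.96% and 6.25%. In introns, 3 were higher without the deeper GH 240 min library, and 1 was lower without it or without the shallower Hypox library, against 6 lower without the deeper Hypox library. In exons, 3 were lower without the shallower GH 240 min or the shallower Hypox library. None of the 17, Socs2 among them, passed the test of the difference between exonic and intronic change, and 1 was higher and 1 lower in it at an unadjusted p under 0.05. With at least 50 reads asked of exons and introns in 2 libraries, Socs2 did pass, with a difference of 2.32 ± 0.33 (limma adjusted p = 0.013). Igf1, the growth factor that carries much of GH action, had 3.14 and 2.63 FPKM in introns at GH 240 min and 0.425 and 0.909 FPKM in Hypox. Its intronic change of 2.14 ± 0.31 stood beside an exonic change of 2.09 ± 0.27. Cish, which inhibits the GH receptor, had 1.53 and 1.41 FPKM in introns at GH 240 min and 0.0653 and 0.343 FPKM in Hypox, a change of 2.91 beside 3.23 in exons. Socs2, another inhibitor of the receptor, had intronic levels of 0.366 and 0.315 FPKM at GH 240 min and 0.0761 and 0.126 FPKM in Hypox (1.41 ± 0.43, adjusted p = 0.0562), beside an exonic change of 3.73 ± 0.56 (adjusted p = 0.00418). Intronic means of Socs2 were 0.101 FPKM in Hypox, 1.43 at 30 min, 1.31 at 90 min and 0.341 at 240 min. Bcl6, a repressor that competes with STAT5b, had 0.158 and 0.178 FPKM in introns at GH 240 min and 1.02 and 0.668 FPKM in Hypox, with a change of −2.33 in introns and −2.76 in exons. The intronic call of Cish lapsed without the deeper GH 240 min library (adjusted p = 0.0608), and those of Igf1 and Bcl6 held.

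The start of Cish is shown because it holds the STAT5 letters TTCNNNGAA, searched on both strands, side by side. The sequence is from RefSeq (GRCm38.p6), runs 5′ to 3′ to the end of the matches, and has both matches in capitals:
Cish, chr9:107296409-107296678, plus strand: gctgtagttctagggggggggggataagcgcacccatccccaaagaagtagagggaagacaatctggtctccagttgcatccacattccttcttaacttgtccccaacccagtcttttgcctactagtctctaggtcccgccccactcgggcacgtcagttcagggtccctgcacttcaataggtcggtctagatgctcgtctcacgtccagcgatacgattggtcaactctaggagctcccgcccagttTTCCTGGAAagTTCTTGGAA
Such a match lay in the window from 250 bases before to 50 after the start for 5 of 15 GH and STAT5 targets with a promoter sequence (33.3%), Bcl6, Cish, Igfals, Serpina3g and Socs3, and for 9.55% of 27025 promoters.

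Genes of protein folding in the endoplasmic reticulum (ER) formed the group whose members were called higher most often in introns. ER chaperones fold secreted and membrane proteins, and the unfolded protein response raises them when folding capacity is short. Of 33 such genes, 26 were higher and 0 lower in introns, beside 4.96% and 6.25% of all genes tested. In exons 21 were higher and 0 lower, beside 5.72% and 5.54%. Their median log2 change was 0.98 in introns and 0.56 in exons, beside −0.00 and −0.03 over all genes tested. In introns both GH 240 min libraries lay above both Hypox libraries in all 33, and in exons in 29. The groups did not overlap for 57.2% of all genes tested in introns and 56% in exons. The numbers called depended on single libraries: in introns 0, 9, 26 and 0, and in exons 16, 9, 11 and 8, without the deeper GH 240 min, shallower GH 240 min, deeper Hypox and shallower Hypox library. The medians then lay between 0.65 and 1.30 in introns and between 0.48 and 0.58 in exons.

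Promoters of 3 ER chaperone genes are shown because they hold the ER stress element, here the letters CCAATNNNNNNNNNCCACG on either strand. Each is the 250 bases before the start from RefSeq (GRCm38.p6), 5′ to 3′ on the gene's strand, with the matches in capitals:
Hspa5, chr2:34771840-34772089, plus strand: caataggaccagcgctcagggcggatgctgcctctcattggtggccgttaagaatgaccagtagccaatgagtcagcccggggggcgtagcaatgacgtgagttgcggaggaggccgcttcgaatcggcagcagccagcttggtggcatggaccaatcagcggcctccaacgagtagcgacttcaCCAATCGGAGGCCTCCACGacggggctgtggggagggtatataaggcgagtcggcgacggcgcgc
Creld2, chr15:88819396-88819645, plus strand: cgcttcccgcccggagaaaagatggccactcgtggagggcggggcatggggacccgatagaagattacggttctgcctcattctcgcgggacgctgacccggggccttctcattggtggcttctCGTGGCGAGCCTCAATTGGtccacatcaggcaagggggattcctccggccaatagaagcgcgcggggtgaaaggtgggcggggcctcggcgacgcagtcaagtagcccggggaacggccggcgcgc
Hsp90b1, chr10:86705445-86705694, minus strand: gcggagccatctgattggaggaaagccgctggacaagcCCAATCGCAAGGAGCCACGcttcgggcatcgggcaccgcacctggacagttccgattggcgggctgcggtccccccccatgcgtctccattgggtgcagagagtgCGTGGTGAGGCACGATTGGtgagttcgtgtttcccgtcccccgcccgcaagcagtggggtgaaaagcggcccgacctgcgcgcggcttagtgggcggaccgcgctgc
The element was found in 8 of 25 ER folding genes with a promoter sequence (32%), Calr, Canx, Creld2, Dnajc3, Hsp90b1, Hspa5, Pdia6 and Syvn1. Of all 27025 promoters, 37 held it (0.137%). A match of letters describes the sequence and does not show binding.

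Hspa5, which encodes BiP, the main chaperone of the ER lumen (mm9 chr2:34627610-34632049), had 112 and 114 FPKM in exons at GH 240 min and 54.1 and 52.0 FPKM in Hypox. It was 2.02-fold higher (log2 change 1.02 ± 0.12, adjusted p = 0.00136), with no overlap. Its introns held 4.35 and 4.18 FPKM at GH 240 min and 2.83 and 1.47 FPKM in Hypox (0.98 ± 0.25, adjusted p = 0.0302). Creld2, a disulfide isomerase of the ER (mm9 chr15:88650076-88657111), had 9.23 and 12.1 FPKM in exons at GH 240 min and 3.30 and 2.68 FPKM in Hypox (1.73 ± 0.18, adjusted p = 0.000954). Its introns changed by 2.08 ± 0.48, with 1.09 and 1.16 FPKM at GH 240 min and 0.440 and 0.129 FPKM in Hypox. The exonic calls of Hspa5 and Creld2 held with each library left out. Their intronic calls held only without the deeper Hypox library. Leaving out the shallower Hypox library gave an adjusted p of 0.25 for Hspa5 and 0.183 for Creld2.

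Dnajb9, a cochaperone of BiP, had 35.7 and 35.3 FPKM in exons at GH 240 min and 13.3 and 7.70 FPKM in Hypox (1.73 ± 0.19, adjusted p = 0.00128). Manf, a secreted protein induced by ER stress, had 15 and 17.5 FPKM at GH 240 min and 5.78 and 4.49 FPKM in Hypox (1.59 ± 0.18, adjusted p = 0.00128). The GH 240 min libraries of both genes lay above the Hypox libraries, and both calls held with each library left out. Calr and Hsp90b1, abundant chaperones of the ER, changed by 0.48 each in exons (adjusted p of 0.0324 and 0.0319) and by 1.15 and 0.69 in introns, and their exonic calls lapsed with any 1 of the 4 libraries left out. Their intronic adjusted p was 0.0964 for Calr and 0.247 for Hsp90b1 with the shallower Hypox library left out. P4hb, a protein disulfide isomerase, had 123 and 115 FPKM in exons at GH 240 min and 115 and 103 FPKM in Hypox (0.05), beside an intronic change of 0.98 (adjusted p = 0.0369, or 0.298 with the shallower Hypox library left out). Xbp1, a transcription factor of the unfolded protein response, went the other way, with 1.11 ± 0.29 in exons (adjusted p = 0.0367, or 0.238 with the shallower Hypox library left out) and 0.14 ± 0.19 in introns.

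Slc35b1, a transporter that supplies ATP to the ER, was among the largest intronic rises, with 1.24 and 1.29 FPKM at GH 240 min and 0.381 and 0.115 FPKM in Hypox (2.41 ± 0.39, adjusted p = 0.0053). Its exons held 9.03 and 10.8 FPKM at GH 240 min and 4.92 and 3.70 FPKM in Hypox (1.12 ± 0.19, adjusted p = 0.00571, or 0.0559 with the shallower Hypox library left out). Hyou1, a large ER chaperone, had exonic levels of 22.5 and 29.5 FPKM at GH 240 min and 12.3 and 8.93 FPKM in Hypox (1.22 ± 0.19, adjusted p = 0.0044). Exonic means of Hspa5 were 53.1 FPKM in Hypox, 51.1 at 30 min, 55.5 at 90 min and 113 at 240 min, and those of Creld2 were 2.99, 3.27, 3.29 and 10.7 FPKM. For Hspa5 and Creld2 the higher level was thus seen at 240 min alone among the 3 times.

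**Figure D3:**
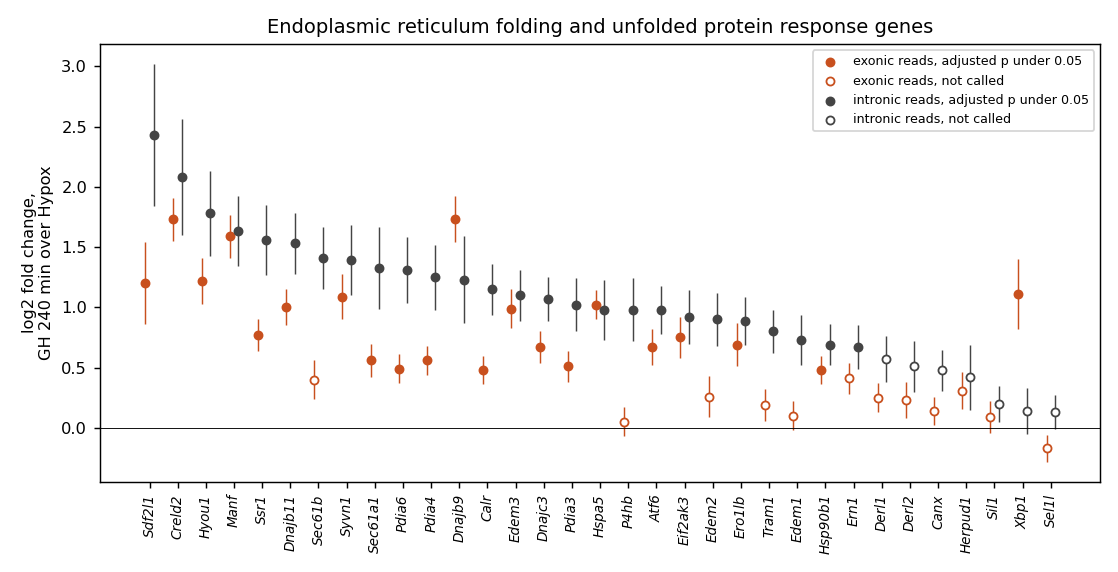
Log2 change, GH 240 min over Hypox, of exons and introns of each gene of ER folding, with its standard error; filled points passed the adjusted p of 0.05. Introns lie above 0 for all 33 genes, and Creld2, Dnajb9 and Manf have the largest exonic changes among the genes described.

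Genes that build ribosomes and supply translation were higher together. Of 39 ribosome biogenesis genes, 28 were higher and 0 lower in exons, beside 5.72% and 5.54% of all genes tested. Their exonic median was 0.80, beside −0.03 over all genes tested. In introns 11 of 37 were higher, beside 4.96% of all genes tested, with a median of 0.78. The number higher in exons was 28, 19, 18 and 15 without the deeper GH 240 min, shallower GH 240 min, deeper Hypox and shallower Hypox library, and in introns 1, 3, 13 and 0. Nop58, a core protein of the box C/D snoRNPs that methylate ribosomal RNA, had 10.3 and 10.9 FPKM in exons at GH 240 min and 3.01 and 2.56 FPKM in Hypox. It was 3.58-fold higher (1.84 ± 0.16, adjusted p = 0.000331), without overlap, and the call held with each library left out. The Nop58 span holds 2 snoRNA genes, so its intronic reads may include theirs. Bysl, needed for the small ribosomal subunit, Tsr1, of the same pathway, and Gnl3, nucleostemin, changed in exons by 1.55, 1.34 and 1.30 (adjusted p of 0.00135, 0.00128 and 0.00136). All 3 overlap other genes, and their calls held with each library left out.

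Of 27 genes of translation initiation and elongation, 12 were higher and 1 lower in exons, with a median of 0.43; the number higher was 9, 5, 4 and 3 with the deeper GH 240 min, shallower GH 240 min, deeper Hypox and shallower Hypox library left out. Eif4a1, the helicase of the cap-binding complex, had 57.2 and 52.7 FPKM at GH 240 min and 34.5 and 30.1 FPKM in Hypox (0.69 ± 0.11, adjusted p = 0.0044). Of 20 cytosolic and related tRNA synthetases, 7 were higher in exons and 9 in introns and 0 were lower. Without the shallower Hypox library 3 were higher in exons and 0 in introns, and without the deeper GH 240 min library 1 was higher in introns. Nars and Rars, which charge asparagine and arginine tRNAs, changed in exons by 1.06 and 1.02 (adjusted p of 0.00136 and 0.00476). The counts of translation, synthetase and chaperone genes stand beside 5.72% higher and 5.54% lower in exons over all genes tested. The intronic counts stand beside 4.96% higher and 6.25% lower. Of 22 cytosolic chaperones, 11 were higher and 0 lower in exons, and 6 were higher without the shallower GH 240 min or the deeper Hypox library. Hsp90aa1, the inducible form of HSP90, had 21.1 and 26.8 FPKM at GH 240 min and 9.41 and 10.1 FPKM in Hypox (1.21 ± 0.17, adjusted p = 0.00265), and Bag3, a cochaperone of HSP70, changed by 1.12.

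In polyamine and one-carbon metabolism, 3 of 19 genes were higher and 0 lower in exons, beside 5.72% and 5.54% of all genes tested. The median exonic change of the 19 was −0.10, with 12 below 0 and 7 above. In introns 2 were higher and 4 lower, with a median of −0.20, beside 4.96% and 6.25% of all genes tested. The 3 higher in exons all supply polyamine synthesis. Odc1, ornithine decarboxylase, the first enzyme of that path, had 13.5 and 12.5 FPKM at GH 240 min and 4.75 and 5.55 FPKM in Hypox (1.26 ± 0.16, adjusted p = 0.00213). Srm, spermidine synthase, had 9.15 and 14.2 FPKM at GH 240 min and 4.50 and 3.44 FPKM in Hypox (1.44 ± 0.21, adjusted p = 0.00378). Mat2a, which makes S-adenosylmethionine, changed by 0.61 (adjusted p = 0.0199, or 0.101 with the shallower Hypox library left out). The 60 cytoplasmic ribosomal protein genes had a median exonic change of 0.17, with 1 called higher, Rpl10a at 0.37 (adjusted p = 0.0428, or 0.157 with the deeper Hypox library left out), and 0 lower. With scaling by library totals alone 3 were called higher. In introns their median change was 0.47, with 6 called higher and 0 lower, beside 4.96% and 6.25% of all genes tested. Both GH 240 min libraries lay above both Hypox libraries in the introns of 49 of the 60, where the groups did not overlap for 57.2% of all genes tested. The 6 became 1 without the deeper or the shallower GH 240 min library and 0 without the shallower Hypox library.

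Several genes were lower in both exons and introns. Nr4a1, an orphan nuclear receptor and immediate early gene (mm9 chr15:101097277-101105225), had intronic levels of 0.0714 and 0.0598 FPKM at GH 240 min and 1.45 and 3.25 FPKM in Hypox, 27.1-fold lower (−4.76 ± 0.53, adjusted p = 0.000886). Its exons held 2.07 and 0.850 FPKM at GH 240 min and 6.13 and 6.37 FPKM in Hypox (−2.27 ± 0.55, adjusted p = 0.0259). Igfbp1, an insulin-repressed binding protein of IGF1, had 0.169 and 0.115 FPKM in introns at GH 240 min and 2.68 and 2.26 FPKM in Hypox (−3.92 ± 0.38), and 4.4 and 1.38 FPKM in exons at GH 240 min against 12.5 and 11.6 FPKM in Hypox (−2.32 ± 0.39, adjusted p = 0.0056). Intronic means of Igfbp1 were 2.47 FPKM in Hypox, 0.0832 at 30 min, 0.106 at 90 min and 0.142 at 240 min, and those of Nr4a1 were 2.35, 0.0990, 0.152 and 0.0656 FPKM. Both introns were thus low from 30 min on. The exonic call of Nr4a1 held in 1 of the 4 fits that left a library out, with an adjusted p of 0.149 without the shallower GH 240 min library. The intronic calls of both genes and the exonic call of Igfbp1 held in all 4.

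**Figure D4:**
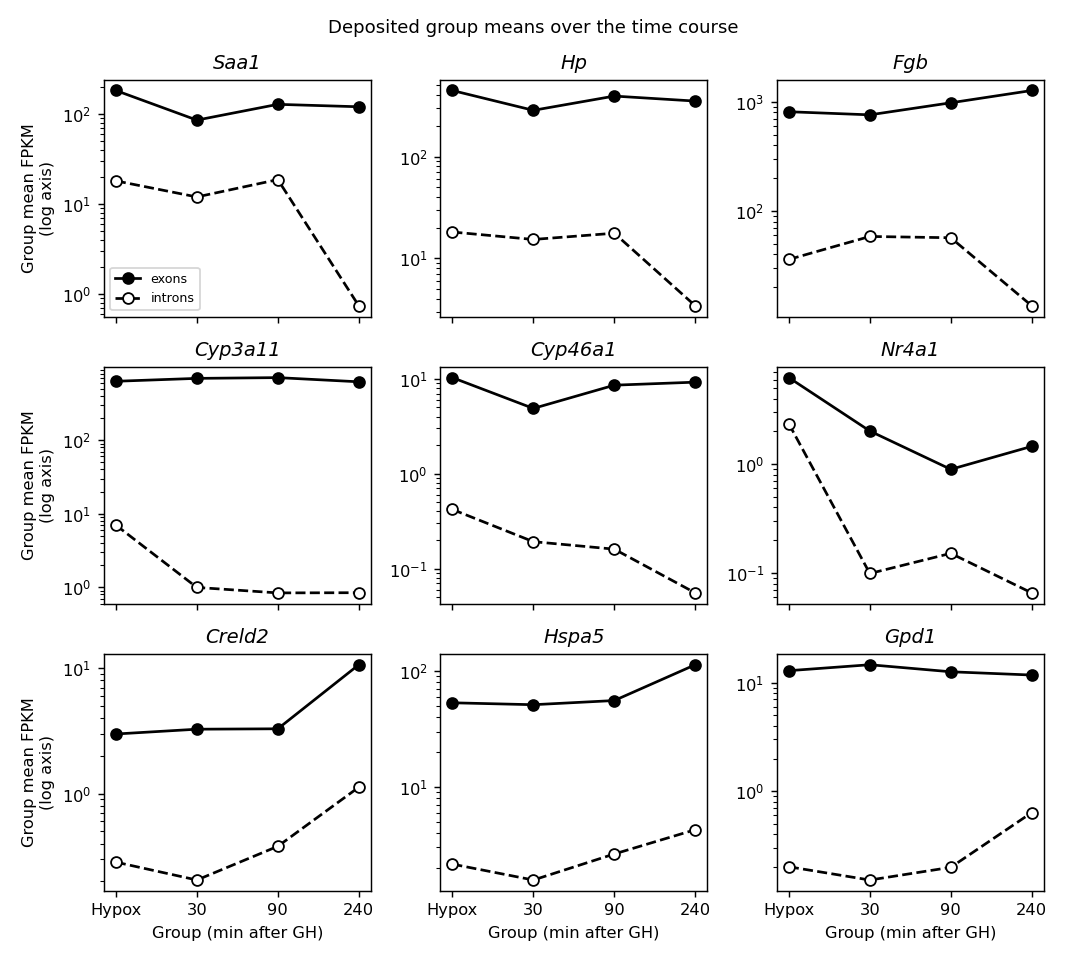
Deposited group mean level (FPKM, log axis) of exons (filled points, solid lines) and introns (open points, dashed lines) in Hypox and 30, 90 and 240 min after GH, for 9 genes named in the text; each point is the mean of 2 libraries. Introns of Saa1 are at 18.2, 12.1, 18.8 and 0.745 FPKM in that order, while introns of Nr4a1 are at 2.35, 0.0990, 0.152 and 0.0656 FPKM.

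Over all genes tested, 5.54% were lower and 5.72% higher in exons, and 6.25% and 4.96% in introns. Among 23 chemokines and targets of NF-kB, a transcription factor of inflammation, 10 were lower and 0 higher in exons, with a median of −0.85. The number lower was 6, 7, 8 and 3 without the deeper GH 240 min, shallower GH 240 min, deeper Hypox and shallower Hypox library. In introns 9 of 19 were lower, with a median of −0.90, and 1, 6, 9 and 1 in the same leave-outs. Il1b, the cytokine interleukin 1 beta, made mainly by macrophages, had 1.12 and 0.881 FPKM in exons at GH 240 min and 4.09 and 4.0 FPKM in Hypox (−2.01 ± 0.22, adjusted p = 0.00128). Icam1, an adhesion molecule, had 3.20 and 3.15 FPKM at GH 240 min and 5.96 and 5.02 FPKM in Hypox (−0.85 ± 0.14, adjusted p = 0.00495). Junb, a subunit of the factor AP-1, had 6.18 and 5.62 FPKM at GH 240 min and 22.1 and 24.1 FPKM in Hypox (−2.03 ± 0.17, adjusted p = 0.000306). In Il1b, Icam1 and Junb the GH 240 min libraries lay below the Hypox libraries, and the exonic calls held with each library left out. Of 10 Kupffer cell markers tested, 0 were called by limma in either direction, with a median of −0.45, and 5 were lower at an unadjusted p under 0.05. Of 9 neutrophil markers 4 were tested, with a median of −0.78. In these 4 both GH 240 min libraries lay below both Hypox libraries, where the groups did not overlap for 56% of all genes tested in exons. Of the 4 markers, 0 were called by limma and 2 were lower at an unadjusted p under 0.05. The part of a change in cell numbers in the chemokine values was not tested.

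Genes of gluconeogenesis and of insulin or FOXO control were read next. Of 24 such genes, 8 were lower and 1 higher in exons, beside 5.54% and 5.72% of all genes tested. Without the deeper GH 240 min or the shallower Hypox library 3 were lower. Ppargc1a, the coactivator PGC-1 alpha, had 0.277 and 0.252 FPKM at GH 240 min and 0.599 and 1.56 FPKM in Hypox (−1.89 ± 0.35, adjusted p = 0.00947). Slc2a2, the glucose transporter GLUT2, had 23.8 and 26.1 FPKM at GH 240 min and 40.9 and 50.9 FPKM in Hypox (−0.95 ± 0.13, adjusted p = 0.00334). Upp2, Krt23 and Rnf152 are not among these 24 genes and were named for their large falls. Upp2, a uridine phosphorylase of liver, changed by −2.14 in exons and −2.47 in introns. Krt23, a keratin, changed by −2.08 and −2.99, and Rnf152, a ubiquitin ligase, by −2.02 and −1.76. The exonic and intronic calls of these 3 held with each library left out.

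Of 39 urea cycle and amino acid breakdown genes, 15 were lower and 0 higher in introns, beside 6.25% and 4.96% of all genes tested. Their intronic median was −0.50. In exons, 4 of the 39 were lower and 1 higher, beside 5.54% and 5.72%. In exons, 2 were lower without the shallower GH 240 min and 0 without the shallower Hypox library, and 0 were higher with any 1 library left out. The number lower in introns was 2, 8, 11 and 1 without the deeper GH 240 min, shallower GH 240 min, deeper Hypox and shallower Hypox library. Tat, tyrosine aminotransferase, had 69.4 and 76.0 FPKM in exons at GH 240 min and 140 and 160 FPKM in Hypox (−1.11 ± 0.23, adjusted p = 0.0138). Without the deeper GH 240 min or the shallower Hypox library the adjusted p of Tat was 0.0631 and 0.0958. Ddc, which decarboxylates DOPA and is not in this list, was named as one of the largest intronic rises, at 2.55. Its exons held 25.3 and 17.6 FPKM at GH 240 min and 4.59 and 5.34 FPKM in Hypox (2.01 ± 0.20). Ddc overlaps another gene of the table. Both exonic and intronic calls of Ddc held with each library left out. The 10 markers of periportal hepatocytes, of which Arg1, Ass1, Gls2, Hal, Pck1 and Sds are themselves in the gluconeogenesis or urea cycle list, summed to 533 and 460 FPKM in exons at GH 240 min and 582 and 625 FPKM in Hypox. Their median change was −0.51, all 10 were below 0, and 1, Arg1, was called lower. The groups did not overlap in 8, beside 56% of all genes tested in exons. The Arg1 call lapsed without the shallower GH 240 min or the shallower Hypox library (adjusted p of 0.128 and 0.173). The 10 markers of pericentral hepatocytes summed to 1280 and 1196 FPKM in exons at GH 240 min and 1155 and 1006 FPKM in Hypox. Of 9 tested, 1, Oat, was higher and 2 were lower in exons, with a median of −0.28. In introns 0 were higher and 3 lower, with a median of −0.43. Oat is also in the urea cycle list. The part of either zone in the values of both lists was not tested.

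Of 37 cytochrome P450 genes of families 1 to 3, 6 were lower and 2 higher in exons, beside 5.54% and 5.72% of all genes tested. In introns 10 were lower and 0 higher, beside 6.25% and 4.96%. Leaving out the shallower Hypox library left 2 lower in exons and 3 in introns, the deeper Hypox library 3 and 6, and the deeper GH 240 min library 4 in introns. Cyp3a25 had 90.6 and 91.0 FPKM in exons at GH 240 min and 162 and 199 FPKM in Hypox (−1.06 ± 0.14, adjusted p = 0.00229). Cyp2b13, a female-biased P450, had 46.3 and 28.8 FPKM at GH 240 min and 80.3 and 79.9 FPKM in Hypox (−1.21 ± 0.21, adjusted p = 0.00657). Cyp2c70, which makes muricholic acids, was higher, with 157 and 148 FPKM at GH 240 min and 84.3 and 69.7 FPKM in Hypox (0.92 ± 0.17, adjusted p = 0.0101). Its call lapsed without the shallower Hypox library (adjusted p = 0.0792). Slc10a1 is the sodium-dependent transporter that takes bile acids into hepatocytes. It had 46.9 and 52.5 FPKM at GH 240 min and 19.4 and 21.9 FPKM in Hypox (1.19 ± 0.16, adjusted p = 0.00262). Of 22 genes of bile acid synthesis and transport, it was the 1 called higher in exons, and 2, Abcc2 and Abcc3, were lower. The median exonic change of the 22 was −0.31, with 15 below 0 and 7 above.

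Of 27 nuclear receptor genes, 10 were lower and 2 higher in exons, beside 5.54% and 5.72% of all genes tested. Their median was −0.26. The number lower was 6, 3, 4 and 1 without the deeper GH 240 min, shallower GH 240 min, deeper Hypox and shallower Hypox library, and 6 with scaling by library totals alone. Nr1i3, the xenobiotic receptor CAR, had 16.4 and 10.7 FPKM at GH 240 min and 35.2 and 33.9 FPKM in Hypox (−1.45 ± 0.22, adjusted p = 0.0039), and changed by −1.67 in introns. It overlaps Tomm40l. Esr1, estrogen receptor alpha, had 2.19 and 2.07 FPKM at GH 240 min and 0.997 and 0.741 FPKM in Hypox (1.22 ± 0.17, adjusted p = 0.00262). Its introns changed by 1.79 ± 0.29, a call that lapsed without the shallower Hypox library (adjusted p = 0.0682).

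Other lists moved less or in both directions. The counts stand beside 5.72% higher and 5.54% lower in exons over all genes tested, and 4.96% and 6.25% in introns. Among 33 female-biased liver genes, 4 were higher and 4 lower in exons, and 2 higher and 10 lower in introns, with an intronic median of −0.77. Without the shallower Hypox library 1 was lower in exons and 1 in introns. Fmo2, a flavin monooxygenase, had 14.3 and 7.01 FPKM in exons at GH 240 min and 2.55 and 2.81 FPKM in Hypox (1.82 ± 0.27, adjusted p = 0.00378), beside an intronic change of 0.74 ± 0.30. Of 26 cholesterol synthesis and uptake genes, 6 were higher and 1 lower in exons, among them Sqle, squalene epoxidase, at 1.23 ± 0.28 (adjusted p = 0.0211, or 0.121 with the deeper Hypox library left out). Without the shallower GH 240 min or the deeper Hypox library 2 were higher. Of 38 genes of fatty acid oxidation, 5 were lower and 0 higher in exons, and 8 and 1 were lower without the deeper GH 240 min and the deeper Hypox library. In fatty acid synthesis, Scd1, the stearoyl-CoA desaturase, had 96.0 and 71.5 FPKM at GH 240 min and 256 and 176 FPKM in Hypox (−1.43 ± 0.25, adjusted p = 0.0064). Of 48 splicing factors, 10 were higher in exons and 0 in introns, but 0 to 3 were higher in exons with 1 of the 4 libraries left out. Of 36 respiratory chain genes 1 was higher in exons and 0 were lower.

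**Figure D5:**
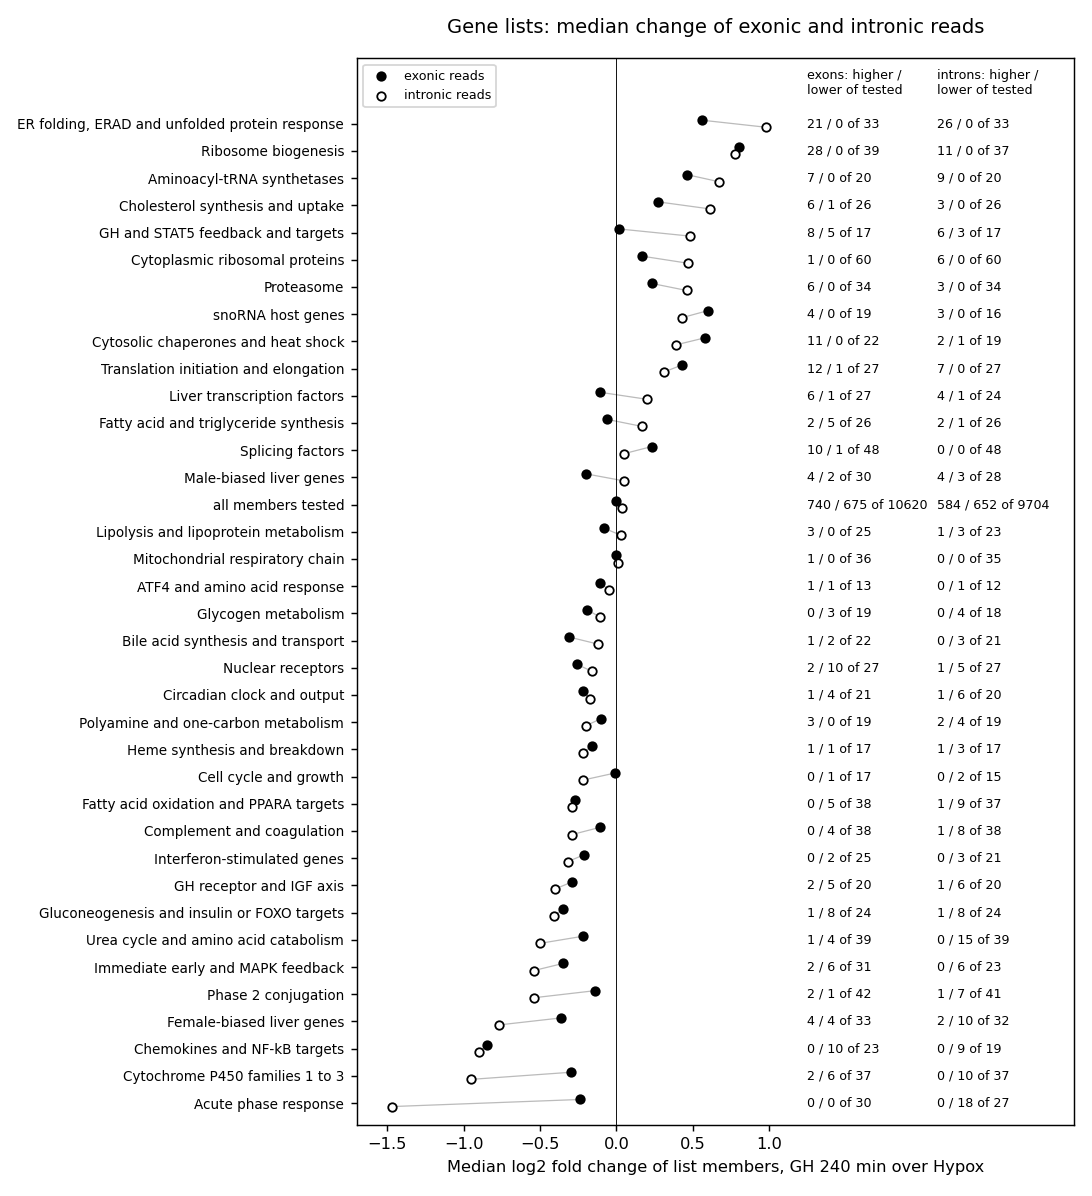
Median log2 change, GH 240 min over Hypox, of each gene list in exons (filled points) and introns (open points), with the number of genes called higher and lower. Acute phase genes have medians of −0.24 in exons and −1.47 in introns, ER folding genes 0.56 and 0.98, and ribosome biogenesis genes 0.80 and 0.78.

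Markers of other cell types were low beside those of hepatocytes. The numbers called stand beside 5.72% higher and 5.54% lower in exons over all genes tested. Of the cholangiocyte markers, Krt19, Krt7 and Spp1 were called higher of 6 tested, and 10 such markers, with Sctr at 0, summed to 10.3 and 16.1 FPKM at GH 240 min and 5.11 and 6.87 FPKM in Hypox. Without the shallower GH 240 min or the deeper Hypox library 0 were called. Of 10 markers of sinusoidal endothelial cells, which summed to 51.8 and 48.6 FPKM at GH 240 min and 59.2 and 56.4 FPKM in Hypox, Kdr and Stab2 were called lower and all 10 changes were below 0. Without the deeper or the shallower Hypox library 0 were called. Stellate cell markers summed to 44.1 and 43.2 FPKM at GH 240 min and 43.5 and 42.4 FPKM in Hypox, and T and NK cell markers to 1.5 and 1.21 FPKM at GH 240 min and 1.37 and 1.41 FPKM in Hypox. Of 7 adipocyte markers 4 were at 0 in the 4 libraries, among them Adipoq, and of 8 pancreas markers 6 were at 0.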

How the data were processed

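The authors deposited, per the file headers, mean FPKM of the 2 libraries of each group over the gene body, and an intronic signal in the same unit, for 24197 genes (build mm9), with expression ratios and adjusted p-values for each time against Hypox. The submitters' processing notes name TopHat2, featureCounts and edgeR. Their versions, the rule splitting reads between exons and introns, and any use of strand are not given in the sources used here. Reads may thus be shared between overlapping genes and near-identical copies.

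Whole reads were recovered by arithmetic, since each deposited mean FPKM is a sum of 2 whole read numbers over library totals and a length. The totals were inferred from the deposited values themselves. For single-location genes without intronic values the length was the span where it fitted. Otherwise it was the shortest length, or a multiple of it, that gave whole reads in every group. Whole reads were thus in part the criterion by which lengths were chosen. All 18359 genes with a gene body value above 0 (100.00%) and all 16030 single-location genes with exonic and intronic values (100.00%) gave whole reads in every library, written to 10 and 12 decimals, with 0 genes having more than 1 solution. With totals moved by 1000 reads, 0 of 1000 genes did, against 1000 of 1000 with the totals used. The arithmetic was tested on simulated data.

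limma 3.58.1 (R 4.3.3) with a trended prior was fitted to log2(CPM + 0.1) of all 8 libraries with median-of-ratios scaling (factors 0.916 to 1.05 in exons and 0.859 to 1.07 in introns), for genes with at least 10 reads in 2 libraries, with 4 residual degrees of freedom; values after ± are its standard errors. The contrast was GH 240 min minus Hypox, in exons, in introns and in exons minus introns, adjusted over all genes tested by Benjamini-Hochberg. The fit was tested on simulated data. The log2 scale with a pseudocount understates changes of low genes. Reads per library are not independent molecules. Of the members, 390 were not tested in exons.

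Genes were named from the largest called changes in exons, introns and their difference. Up to 4 of each gene list, by exonic p, were added, as were Igf1, Cish, Socs2 and Bcl6. Not all genes picked by this rule are described. Left out were, among others, Nrep, Onecut1, Aacs, Keg1, Fam13a and Cxcl1, which are among the largest exonic changes. Genes named outside this rule were chosen after their values were seen. These are the acute phase genes other than Saa1 and Saa2, and Ang, Oat, Il13ra1, P4hb, Calr, Hsp90b1, Xbp1, Hyou1, the cell type markers and the genes said to be so where they appear. The members and lists were chosen with earlier results of these data known. Alternatives were scaling by library totals, a pseudocount of 1 CPM, filters of 1 and of 50 reads, a member limit of 1 FPKM, the groups alone, limma-voom, the authors' deposited adjusted p-value, and each library left out; with 1 library left in a group, it is assumed to vary like the others. Results of 1 gene are not reported here. Promoter sequences came from RefSeq (GRCm38.p6).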

Additional observations from a re-analysis of the deposited data

How the results depend on the processing

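With 1 of the 4 libraries left out, members higher in exons numbered 203 to 494 and lower 158 to 473, higher in introns 34 to 511 and lower 91 to 509, and higher in the exonic minus intronic difference 0 to 3. With the 2 groups fitted alone 430 were lower in exons and 0 higher in the difference. In the difference, a pseudocount of 1 CPM gave 165 higher and 62 lower, at least 50 reads in 2 libraries gave 124 and 46, and at least 1 read in 1 library gave 0 higher. The cause was not tested, beyond the fewer genes tested at 50 reads and the fewer libraries. The authors' deposited adjusted p called 647 members higher and 530 lower in exons, 581 and 464 of them also called here, and none in the opposite direction. With limma-voom 849 were higher and 703 lower in exons. Among the named genes 6 exonic changes turned with 1 library left out, none of them called: they ranged from −0.36 to 0.13 in Cyp3a11, −0.57 to 0.09 in Cyp46a1, −0.12 to 0.29 in Fh1, −0.91 to 0.70 in Nnmt, −1.29 to 0.51 in Saa1 and −1.11 to 0.64 in Saa2. No paired analysis was possible because the deposited columns are group means and the recovered libraries carry no pool number; the planned replicate block was not run. With 2 pools a group, changes near the median standard error of 0.20 in exons and 0.24 in introns (log2) could not be resolved, and introns rest on fewer reads.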

Other observations

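Clock genes, interferon-stimulated genes and complement genes were not described above. Over all genes tested, 5.72% were called higher and 5.54% lower in exons, and 4.96% and 6.25% in introns. Of 21 circadian clock and output genes, 4 were lower and 1 higher in exons, and 1 to 5 were lower with 1 of the 4 libraries left out. Dbp and Hlf, output factors of the clock, changed in exons by −0.71 and −0.92. Of 38 complement and coagulation genes, 4 were lower and 0 higher in exons and 8 lower and 1 higher in introns, with 1 lower in exons with any 1 library left out. Lower in introns were 3, 4, 5 and 2 without the deeper GH 240 min, shallower GH 240 min, deeper Hypox and shallower Hypox library. Klkb1, plasma prekallikrein, fell by 0.84 on the log2 scale in exons, a call that held with each library left out. Of 25 interferon-stimulated genes, 2 were lower in exons, Mx2 and Usp18, and 0 with any 1 library left out. Of 31 immediate early genes and MAPK feedback genes, 6 were lower and 2 higher in exons, Phlda1 at 1.39 and Errfi1 at 0.98. Without the shallower Hypox library 2 were lower, and 4 without the shallower GH 240 min library. Errfi1 encodes an inhibitor of the EGF receptor.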
